A study of Mus musculus with 9 samples.

Results

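The regulators and matrix genes of cartilage, 10 genes in all, were followed in MC3T3-E1 preosteoblast cells after low-intensity pulsed ultrasound (LIPUS), namely the transcription factors *Sox9*, *Sox5* and *Sox6*, the signal *Ihh* and the matrix genes *Acan*, *Comp*, *Hapln1*, *Matn3*, *Matn4* and *Chad*. They were taken by gene symbol, with every probe set that the annotation of the array gives to one of them, and collagens were left out. A probe set is a group of short oligonucleotides on the array that together measure a transcript. The genes were measured by 25 of the 45037 probe sets tested, and they were 10 of the 18193 genes with a probe set of 1 symbol.

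MC3T3-E1 is a single established line of C57BL/6 mouse calvaria, cells that can mature into osteoblasts. All cells had grown for 14 days in medium with 10% FBS, 0.3 mM ascorbic acid and 10 mM β-glycerophosphate, and were then reseeded for 24 h. LIPUS at 30 mW/cm2 and 1.5 MHz was given once for 20 min, and RNA was taken 6 h or 24 h later, while control cells had a mock treatment. Each of the 3 groups had 3 arrays, labelled by replicate number. Arrays with the same number are called an experiment here, although no source states it. The culture time of the mock cells is not given in the sources used here, so LIPUS and time in culture cannot be told apart at either time point.

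Cartilage is laid down by chondrocytes, whose identity depends on SOX9, which binds the control regions of cartilage matrix genes together with the related factors SOX5 and SOX6. The matrix is built around aggrecan (*Acan*), a large proteoglycan tied to hyaluronan by link protein (*Hapln1*), with matrilins (*Matn3*, *Matn4*), cartilage oligomeric matrix protein (*Comp*) and chondroadherin (*Chad*) as adaptors between its fibres and cells. Indian hedgehog (*Ihh*) is the signal of prehypertrophic chondrocytes that sets the pace of the growth plate, and a healing fracture passes through a cartilage callus before bone replaces it.

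The cells gave signal for *Sox9*, *Sox5*, *Sox6* and part of the matrix, while *Ihh* and other cartilage genes stood at the level of silent genes. As a guide to silence, 44 probe sets of olfactory receptor genes had a median of 3.39 on the log2 scale of the arrays, and 95% of them were at or under 4.96. That level was exceeded by the mean over all 9 arrays for 15 of the 25 probe sets, against 50.4% of all probe sets, and 8 of the 25 were among the brighter 40% of the array. Those 8 belonged to *Sox9*, *Sox5*, *Sox6*, *Hapln1* and *Matn4*, with only 1455535 (mean 6.33) of the *Sox5* probe sets among them. *Comp*, at 5.04, was just above the silent level, and no probe set of *Acan*, *Matn3*, *Chad* or *Ihh* exceeded it. A value at this level on these arrays gives no evidence that the gene was transcribed or that it was not.

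The label of the cells was set against marker genes. For osteoblasts 6 of the 7 markers measured were above the silent level, *Ibsp* being the exception, and *Runx2*, *Bglap* and *Spp1* were not analysed here. Of 19 chondrocyte markers, which include the 10 genes, 9 were above it, and *Matn1*, *Ucma*, *Snorc*, *Epyc*, *Col10a1* and *Col11a2* were not, beside the 4 named above. The mean level over the chondrocyte markers was 5.66 to 5.94 on the control arrays and 5.60 to 5.89 at 24 h. This mean hid calls in both directions, since at 24 h *Col2a1*, the main cartilage collagen, fell by 0.82 (from 10.06 to 9.24, adjusted p = 9e-05 by limma) and *Cnmd* by 0.45, beside the rise of *Matn4* described below. Over the osteoblast markers it was 8.72 to 9.06 and 9.03 to 9.37, in which *Dmp1*, an osteocyte matrix gene, was 1.43 higher on the log2 scale (adjusted p = 0.00123 by limma). Of 5 keratinocyte markers 3 were above the silent level, with a mean over the 5 of 5.77 to 6.17 on the control arrays and 5.66 to 6.07 at 24 h, in which *Krt14*, a keratin of basal epithelium, fell by 0.98 (adjusted p = 9e-05) and *Trp63*, a factor of epithelial progenitors, rose by 0.44 (adjusted p = 0.0125). The part of such shifts in the results below was not tested. In a bulk sample, more cells of a type and more RNA per cell cannot be told apart. Of the other cell types checked, 3 of 5 tendon and fibroblast markers and 2 of 5 skeletal muscle markers were above the silent level. For adipocytes it was 1 of 4, and for macrophages and endothelium 1 of 5 each. No marker of these other types was called at 24 h.

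**Figure D1:**
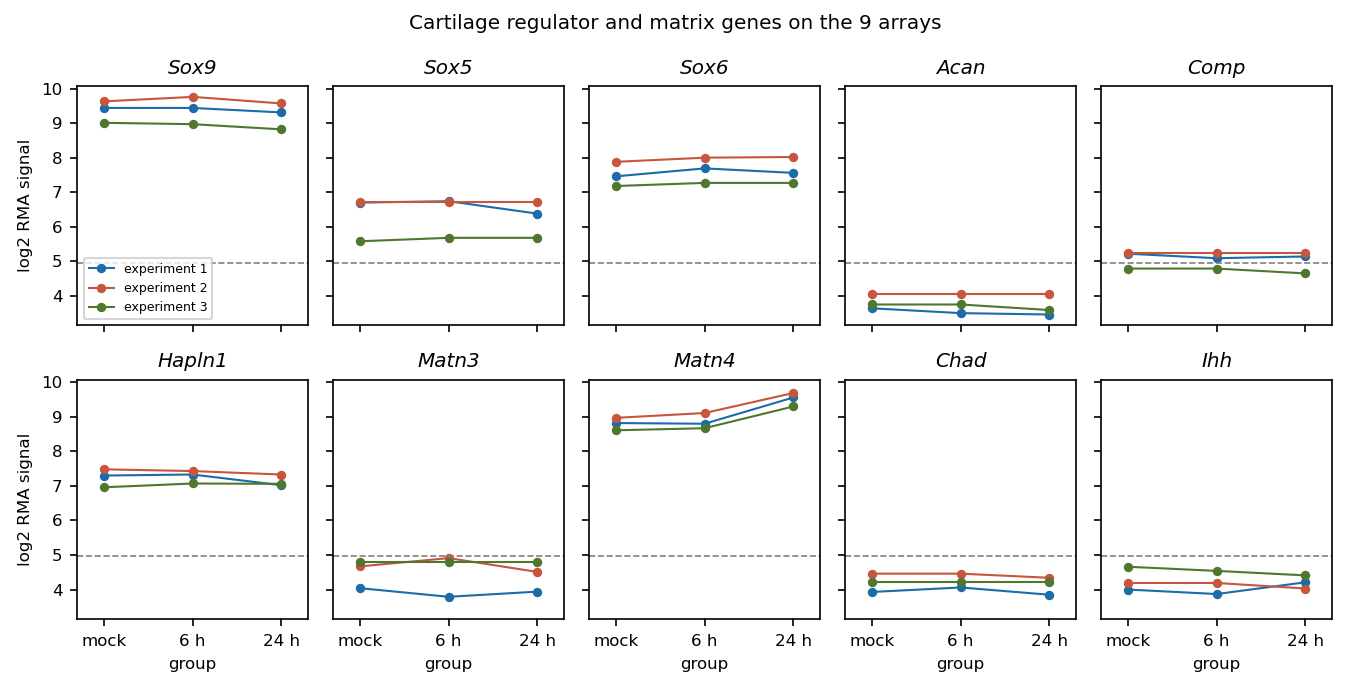
Log2 signal (vertical axis) of the brightest probe set of each of the 10 genes in mock-treated cells and at 6 h and 24 h after LIPUS, with the arrays of an experiment joined by a line. The dashed line is the silent level of 4.96; the *Matn4* lines rise in parallel between 6 h and 24 h, while those of *Acan*, *Matn3*, *Chad* and *Ihh* stay under the dashed line.

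At 24 h, *Matn4* was the only gene of the 10 with a probe set that passed. Of the 25 probe sets 1 was higher, 0 were lower and 24 did not pass, at an adjusted p under 0.05 by limma with the experiment as a block. Over the whole array, 2.73% of probe sets passed (1.8% higher and 0.933% lower), and 6.53% of the brighter 40%, so 1 of 25, or 1 of 8 bright ones, is near the background. When only the brighter 40% were tested, *Sox6* 1434918 passed as well (0.26, adjusted p = 0.04 by limma). On simulated data, with changes set only in probe sets of the brighter 40%, this fit called only 10 of 50 changes of 1.2-fold. Changes of that size in *Sox9*, *Sox5*, *Sox6* and *Hapln1* could thus go unseen. The other genes have no bright probe set, and the simulation gives no rate for them. The log2 fold changes of the 25 ran from -0.18 to 0.72 with a median of -0.07, beside a median of 0 over all probe sets, and 15 of them were below 0. Among the 8 bright ones the median was 0.02, with 4 above 0 and 4 below. At an unadjusted p under 0.05 by limma there were 6, among them every probe set of *Sox6*, against 12.6% of all probe sets. Of the 8 bright ones it was 5, against 4481 of the 18015 brighter probe sets of the array. At 6 h, 0 of the 25 passed, as 0% did over the array, and 3 had an unadjusted p under 0.05, all of *Sox6*, against 3.5%. The smallest adjusted p at 6 h was 0.959. The comparisons of 6 h and of 24 h with control share the control arrays, so they are not independent of each other.

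**Figure D2:**
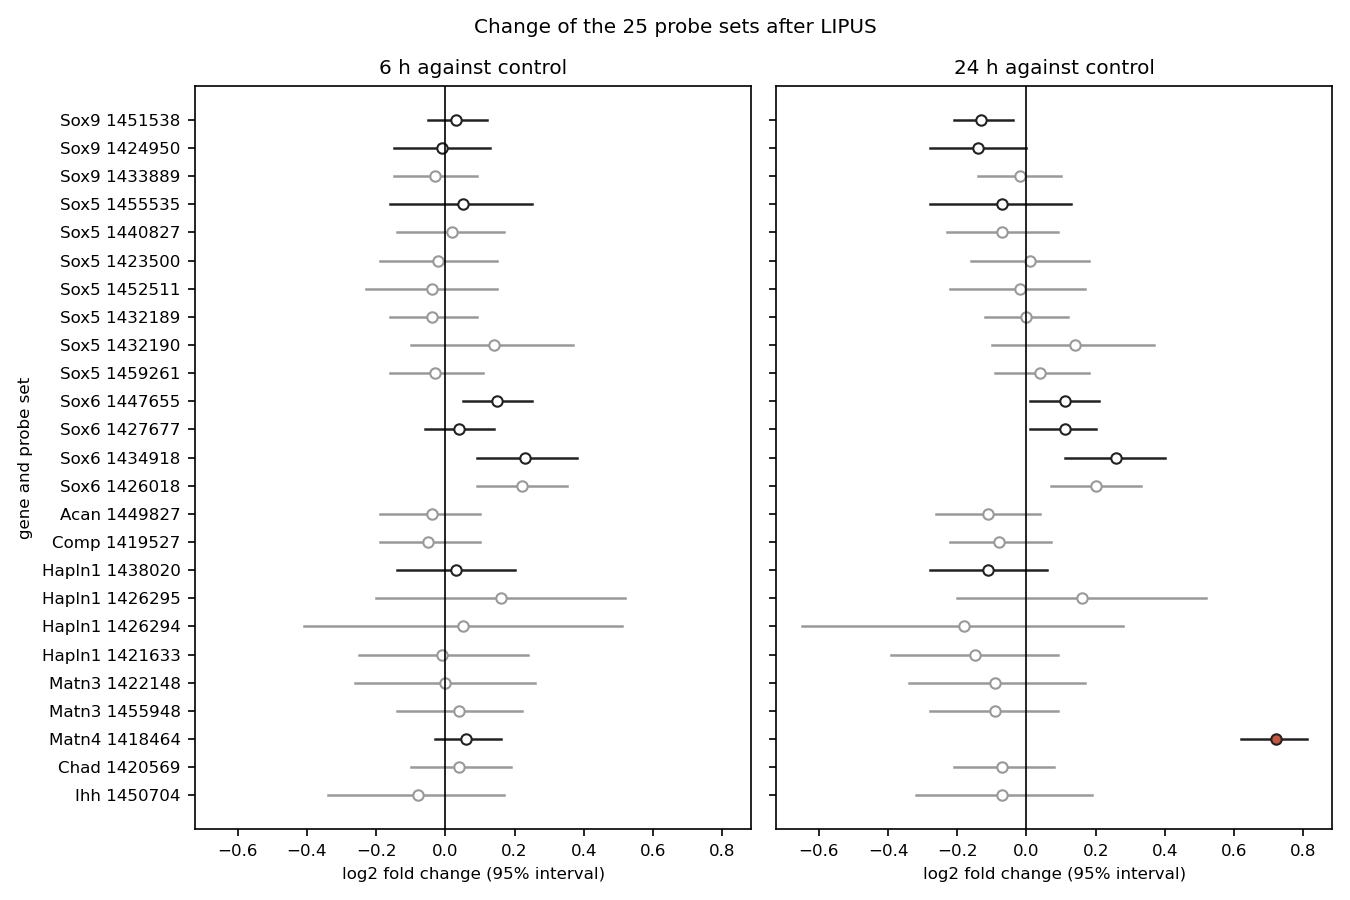
Log2 fold change against control (horizontal axis) of each of the 25 probe sets at 6 h and at 24 h, with 95% confidence intervals from limma that are not adjusted for the number of probe sets. Black marks probe sets among the brighter 40% of the array, grey the others, and a filled circle an adjusted p under 0.05; the one filled circle is *Matn4* at 24 h, at 0.72.

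*Matn4* encodes matrilin 4, an adaptor protein of the extracellular matrix that is found in cartilage and in many other tissues. Its probe set, 1418464, read 8.82, 8.97 and 8.61 on the control arrays of experiments 1, 2 and 3. At 6 h it read 8.80, 9.11 and 8.67. At 24 h the values were 9.56, 9.69 and 9.30. Every array at 24 h was thus above every other array, whereas the arrays at 6 h overlapped those of the control; such a separation from control, upward, was seen in 0.901% of all probe sets, and from 6 h, upward, in 0.719%. The log2 fold change at 24 h was 0.72 (SE 0.04, 95% interval 0.62 to 0.81, adjusted p = 0.000606 by limma), with ratios of 1.67, 1.64 and 1.61 in the experiments, a mean of 1.64 ± 0.0291 (SD, n = 3). At 6 h it was 0.06 (SE 0.04, interval -0.03 to 0.16, adjusted p = 0.959 by limma). The step from 6 h to 24 h, 0.65 (SE 0.04), passed as well (adjusted p = 0.001 by limma), the only one of the 25 to do so, where 2.02% of all probe sets did. At an unadjusted p under 0.05 there were 2 of the 25 in that comparison, against 10.4%.

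By the rule of the study, a ratio of 1.5 or more in all 3 experiments, *Matn4* was again the single probe set of the 25 at 24 h, beside 0.0955% of all probe sets that were higher and 0.0355% that were lower, and none of the 25 met it at 6 h. Applied to the values used here, the rule gave 43 probe sets higher and 16 lower at 24 h over the array. The study listed more in each direction, and gave a larger mean ratio for *Matn4* than the 1.64 found here. The study chose *Matn4* for display and for PCR on these same arrays, so its place among the 10 genes is not independent evidence of its direction. By that real-time PCR, the study reports *Matn4* as significantly upregulated in cells treated with LIPUS. Ordered from the largest rise at 24 h downward, *Matn4* was 49th of all probe sets. The call was lost when both LIPUS arrays and the control array of experiment 1 were left out (0.70, adjusted p = 0.144 by limma) and when the experiments were not blocked (0.72, adjusted p = 1 by limma).

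A gene that overlaps *Matn4* gave no signal above silence. *Rbpjl*, which encodes a transcription factor of the pancreas, stood at 4.46, under the silent level, and its log2 fold change at 24 h was 0.02 (SE 0.05, adjusted p = 0.896 by limma). Beyond it, *Sdc4*, a cell surface proteoglycan, differed by 0.18 (SE 0.05, adjusted p = 0.158) and *Slpi*, a protease inhibitor, by -0.12 (SE 0.04, adjusted p = 0.259), neither of which passed in the limma fit. Among 9993 other genes, those whose 9 values followed *Matn4* most closely, once the mean of each experiment was removed, were *Dio2* (r = 0.999), *Cdk5r1* (r = 0.998) and *Apod* (r = 0.997). *Dio2*, a thyroid hormone deiodinase, was 1.75 higher at 24 h on the log2 scale, *Apod*, a lipid carrier, 1.04 and *Cdk5r1*, an activator of a neuronal kinase, 0.52. These correlations describe 9 arrays that share 3 groups and 3 experiments.

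The start regions of both matrilins are shown because one gene rose and the other stood at the silent level. They come from RefSeq on GRCm38.p6, from 250 bases before to 50 after the annotated start, 5′ to 3′ on the strand of the gene, with E-boxes (CANNTG, the letters that basic helix-loop-helix factors bind) in capitals. *Matn4* has 2 such windows, on the minus strand at chr2:164405111-164405410 and chr2:164404769-164405068, and *Matn3* has 1 on the plus strand at chr12:8947679-8947978.
Matn4, window 1: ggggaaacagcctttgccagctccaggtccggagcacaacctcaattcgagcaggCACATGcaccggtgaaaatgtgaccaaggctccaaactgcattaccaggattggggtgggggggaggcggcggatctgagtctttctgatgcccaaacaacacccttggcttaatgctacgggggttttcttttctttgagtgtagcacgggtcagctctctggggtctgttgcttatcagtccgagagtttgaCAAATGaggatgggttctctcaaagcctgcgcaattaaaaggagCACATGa
Matn4, window 2: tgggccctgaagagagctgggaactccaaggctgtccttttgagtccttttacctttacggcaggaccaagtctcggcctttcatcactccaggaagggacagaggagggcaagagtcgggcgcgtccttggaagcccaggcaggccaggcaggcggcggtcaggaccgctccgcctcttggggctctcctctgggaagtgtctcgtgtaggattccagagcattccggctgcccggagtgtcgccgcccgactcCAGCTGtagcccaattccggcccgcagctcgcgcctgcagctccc
Matn3: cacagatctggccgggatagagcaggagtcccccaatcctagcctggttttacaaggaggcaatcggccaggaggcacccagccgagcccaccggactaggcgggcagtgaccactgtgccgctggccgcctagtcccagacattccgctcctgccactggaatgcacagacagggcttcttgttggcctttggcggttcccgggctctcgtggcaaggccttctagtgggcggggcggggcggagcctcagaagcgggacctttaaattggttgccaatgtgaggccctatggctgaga
The first *Matn4* window held 3 E-boxes, the second held 1 and the *Matn3* window 0. An E-box is a common string, found in 72.3% of the 32851 windows of 300 bases in the table, and in 10 of the 14 windows of the 8 genes that had one. The letters AACAAT, bound by SOX factors, or their reverse ATTGTT were in 10.7% of all windows, in 1 of the 14 and in none of these 3. Such matches are strings of letters and no measure of binding.

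*Sox9*, the master regulator of chondrocytes, was lower at 24 h in all 3 experiments on both of its bright probe sets, without passing. They were the 2 of the 25 probe sets for which that held, against 6.84% of all and 1911 of the 18015 brighter ones. On probe set 1451538 the control arrays read 9.44, 9.63 and 9.01. The values were 9.44, 9.76 and 8.97 at 6 h and 9.31, 9.57 and 8.82 at 24 h. The experiments lay further apart than the groups, and the groups overlapped; only within an experiment did the 24-h array lie under its control. The log2 fold change at 24 h was -0.13 (SE 0.04, interval -0.21 to -0.04, unadjusted p = 0.0103, adjusted p = 0.175 by limma). On probe set 1424950 it was -0.14 (SE 0.06, interval -0.28 to 0.00, adjusted p = 0.413 by limma). At 6 h the same probe sets differed from control by 0.03 and -0.01 (adjusted p = 0.959 and 0.995). From 6 h to 24 h, probe set 1451538 differed by -0.16 (SE 0.04, adjusted p = 0.108 by limma), with the 24-h array lower in every experiment. The same held for 6.88% of all probe sets and for 2298 of the 18015 brighter ones. The third *Sox9* probe set, 1433889, read 3.47 on average, under the silent level.

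*Sox6*, a partner of SOX9, leaned the other way at both times, again without passing. On probe set 1434918 the control arrays read 7.16, 7.64 and 7.22. At 6 h they were 7.31, 7.98 and 7.44, and at 24 h 7.33, 7.87 and 7.60. Each LIPUS array was above the control of its experiment, though the groups overlapped. The log2 fold change was 0.23 at 6 h (SE 0.06, interval 0.09 to 0.38, adjusted p = 0.959 by limma) and 0.26 at 24 h (SE 0.06, interval 0.11 to 0.40, adjusted p = 0.0916), a mean ratio of 1.2 ± 0.0929 (SD, n = 3) at 24 h. Probe set 1447655 gave 0.15 and 0.11 at these times, and 1427677 gave 0.04 and 0.11, with adjusted p from 0.33 to 0.344 at 24 h. The fourth, 1426018, gave 0.22 and 0.20 but read 4.18 on average, under the silent level. All 4 *Sox6* probe sets were thus higher in all 3 experiments at 24 h, 4 of the 5 probe sets of the 10 genes for which that held. Of all probe sets 10.3% were. At 6 h 3 of the 25 were, all of *Sox6*, against 6.48%. Bright probe sets share a direction more often. Of the 18015 brighter ones, 3932 were higher in all 3 experiments at 24 h and 2405 at 6 h, beside 4 and 2 of the 8 bright ones here. The probe sets of one gene measure the same RNA and are not separate observations.

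*Sox5*, the closest relative of *Sox6*, had 7 probe sets and no lean of that kind. The brightest, 1455535, read 6.70, 6.73 and 5.58 in control cells, 6.74, 6.73 and 5.68 at 6 h and 6.38, 6.73 and 5.68 at 24 h. It was lower in experiment 1, equal in experiment 2 and higher in experiment 3 at 24 h, with a log2 fold change of -0.07 (SE 0.09, interval -0.28 to 0.13, adjusted p = 0.762 by limma). The other 6 had means of 2.54 to 5.07 and log2 fold changes of -0.07 to 0.14 at 24 h. The 3 factors of the SOX trio therefore gave log2 fold changes between -0.14 and 0.26 at 24 h, of which none passed.

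**Figure D3:**
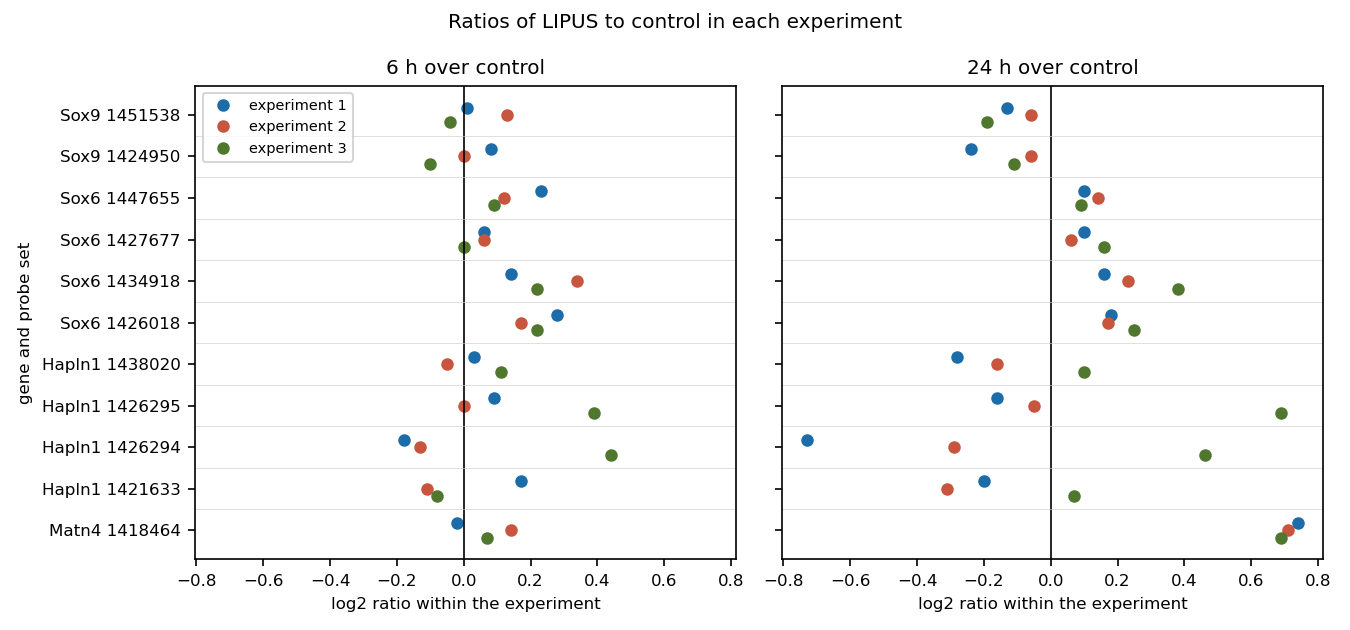
Log2 ratio of LIPUS to the control array of the same experiment (horizontal axis) at 6 h and at 24 h, one point per experiment. Shown are all probe sets of *Sox6* and *Matn4*, and those of *Sox9* and *Hapln1* above the silent level. The 3 points of *Matn4* at 24 h lie between 0.69 and 0.74, those of *Hapln1* 1426294 are spread from -0.73 to 0.46.

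*Hapln1*, whose link protein locks aggrecan onto hyaluronan, split between the experiments. On its brightest probe set, 1438020, the control arrays read 7.30, 7.48 and 6.96 and the 24-h arrays 7.02, 7.33 and 7.06. On probe set 1426294 they read 5.87, 5.99 and 4.94 in control cells and 5.14, 5.70 and 5.40 at 24 h. On all 4 probe sets the 24-h array was lower than control in experiments 1 and 2 and higher in experiment 3, where the control was itself the lowest of the 3 control arrays. The log2 fold change at 24 h was -0.11 (SE 0.07, interval -0.28 to 0.06) on 1438020 and -0.18 (SE 0.20, interval -0.65 to 0.28) on 1426294, and none of the 4 passed in the limma fit (adjusted p from 0.608 to 0.734). Probe set 1426295, with ratios on the log2 scale of -0.16, -0.05 and 0.69, was the only one of the 4 with a positive mean, 0.16. At 6 h the 4 lay between -0.01 and 0.16.

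The remaining matrix genes and *Ihh* were at or near the silent level, and none passed. *Comp*, which organises collagen fibres, read 5.22, 5.23 and 4.79 in control cells and 5.14, 5.23 and 4.65 at 24 h (-0.08, SE 0.06, interval -0.22 to 0.07). *Acan*, the main proteoglycan of cartilage, read 3.64, 4.04 and 3.75, and then 3.46, 4.04 and 3.59 (-0.11, SE 0.06, interval -0.26 to 0.04). In experiment 2 both genes had the same value on all 3 arrays. *Matn3*, the cartilage relative of *Matn4*, differed at 24 h by -0.09 on each of its 2 probe sets, *Chad* by -0.07 and *Ihh* by -0.07, with adjusted p from 0.665 to 0.827 by limma. *Ihh* read 4.0, 4.19 and 4.66 in control cells and 4.21, 4.03 and 4.41 at 24 h, without a common direction.

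Equal values on the 3 arrays of an experiment touched many of these readings. In experiment 1 none of the 25 probe sets had them, while in experiments 2 and 3 there were 8 each, and over the array 0.224%, 36.3% and 28.1% of probe sets did. Among the 8 bright probe sets there was 1 such case in experiment 2, *Sox5* 1455535, and none in experiments 1 and 3. *Matn4* had 9 different values.

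Other genes of cartilage were counted from lists, each gene by its brightest probe set, beside 4.14% of all genes called at 24 h. Growth plate signalling had the highest share, 5 of 17 (29.4%), all of them higher. Cartilage matrix genes other than the 10 gave 3 higher and 1 lower of 24 (16.7%). Of 33 other chondrogenic transcription factors and their partners, 2 were higher and 2 lower (12.1%). In the synthesis of chondroitin sulphate and hyaluronan it was 1 each way of 26 (7.69%), and in the hedgehog and PTHrP loop, in which *Ihh* acts, 1 higher of 18 (5.56%). Bright probe sets pass more often, and the lists had 11 of 17, 11 of 24, 22 of 33, 21 of 26 and 13 of 18 among them, against 9998 of 18193 genes. The median log2 fold changes of the lists ran from -0.03 to 0.08, beside 0 over all genes, and at 6 h none of these genes passed in any list.

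The matrix genes that passed moved both ways. *Cnmd* (chondromodulin, a cartilage protein that blocks vessel growth) fell by 0.45 on the log2 scale at 24 h, from 8.74 to 8.30 (SE 0.06, adjusted p = 0.0105 by limma), by 0.61, 0.45 and 0.29 in the experiments. *Otor* (otoraplin, a secreted cartilage protein of the inner ear) rose by 0.39 (SE 0.03, adjusted p = 0.00186), and the leucine-rich proteoglycans *Fmod* and *Prelp* by 0.25 (adjusted p = 0.00384) and 0.21 (adjusted p = 0.00988). Among the factors, *Mef2c*, which drives chondrocyte hypertrophy, rose by 0.34 (SE 0.04, adjusted p = 0.0089 by limma) and *Osr1* by 0.27 (adjusted p = 0.0333). *Wwp2*, a ubiquitin ligase, fell by 0.34 (SE 0.04, adjusted p = 0.00627) and *Runx3*, a factor of chondrocyte maturation, by 0.23 (adjusted p = 0.0283).

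Among the genes of growth plate signalling, *Fgf18*, a growth factor that acts on chondrocytes, rose by 0.69 (SE 0.12, adjusted p = 0.0372 by limma), from 5.76 to 6.44, with log2 ratios of 0.57, 1.07 and 0.42. Of the FGF receptors on the list, *Fgfr1* and *Fgfr2* rose by 0.32 (adjusted p = 0.00522) and 0.28 (adjusted p = 0.00725), while *Fgfr3*, the receptor that restrains growth plate chondrocytes, differed by -0.07 (SE 0.05, adjusted p = 0.591), and the growth factor *Tgfb2* by 0.29 (adjusted p = 0.00626). *Cdon*, a co-receptor for hedgehog proteins, rose by 0.32 (SE 0.03, adjusted p = 0.0051). *Chst15*, a chondroitin sulphate sulfotransferase, rose by 0.37 (SE 0.04, adjusted p = 0.00488), and *Slc26a2*, which brings sulphate into chondrocytes, fell by 0.23 (SE 0.03, adjusted p = 0.00963). Of these 16 calls over the 5 lists, 0 passed when the arrays of experiment 1 or those of experiment 2 were left out, and 16 genes passed without experiment 3.

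**Figure D4:**
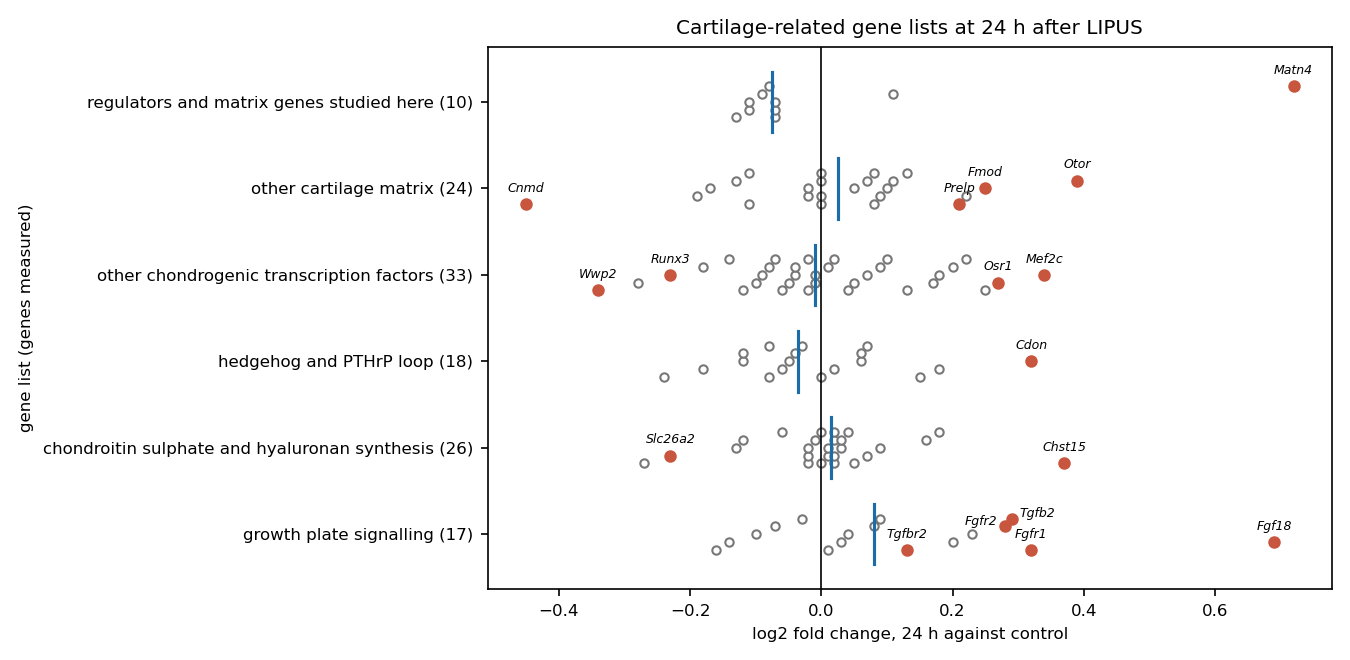
Log2 fold change at 24 h against control (horizontal axis) of each gene of the 10 and of the 5 lists, with the number of genes measured in brackets. Filled circles have an adjusted p under 0.05 by limma and carry the symbol, open circles do not, and the vertical bar is the median of the list; *Matn4* is the filled circle furthest to the right and *Cnmd* the one furthest to the left.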

How the data were processed

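Total RNA of 9 cultures was hybridised to a whole-genome Affymetrix mouse array. The values deposited by the authors are log2 signals made with the RMA method, per the labels, which give no version or settings. Of 45101 probe sets, 64 were controls of the array and were not tested. In the platform annotation 34945 probe sets had 1 symbol, 932 had several and 9160 had none, and genes were named only from probe sets with 1.

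All 9 arrays were fitted with limma 3.58.1 in R 4.3.3 (lmFit and eBayes with an intensity trend) with the experiment as a fixed block, leaving 4 residual and 3 prior degrees of freedom, with Benjamini-Hochberg adjustment over 45037 probe sets and a threshold of 0.05. Arrays with one replicate number were treated as one experiment, which no source states: the deviations of arrays with the same number correlated at 0.56 to 0.90 in all 9 pairs, and those of arrays with different numbers at -0.71 to 0.22. Deviations within a group of 3 sum to 0, so positive correlations for same numbers bring negative ones for different numbers. Arrays numbered 1 also held 40716 to 40936 distinct values, the others 13358 to 20047. A shared culture and shared array processing therefore cannot be told apart by these correlations. P-values measure only the spread between these samples, and the number of arrays limits the precision. The 10 genes and all lists were chosen with earlier results of these data known. Every probe set of the 10 genes was described, and up to 4 genes per list that passed, by size. In data simulated for 24 h against control on 45037 probe sets, 10 of 50 probe sets changed 1.2-fold, 39 of 50 changed 1.5-fold, 46 of 50 changed 2-fold and 48 of 50 changed 3-fold were called, with 4 of 44837 unchanged ones. Alternatives were no block, no trend, other scalings, other filters, thresholds and tests, array weights and leaving out arrays.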

Additional observations from a re-analysis of the deposited data

Results flagged for a closer look

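For 12 of the genes named, the log2 change from control at 24 h differed from that at 6 h, by the limma contrast of 24 h with 6 h. All of them but *Matn4* were named because they had passed at 24 h against control. Both comparisons use the same 24-h arrays, so the 12 are a selected set and cannot be held against the share of the array. In the contrast of 24 h with 6 h, 909 probe sets of the array passed. Without the replicate block 0 passed, and 0 without the arrays of experiment 1, so all 12 differences were lost there. Over the array 8 passed when only the 2 groups were fitted and 44 without experiment 2. *Matn4* differed by 0.65 (adjusted p = 0.001), from 0.06 at 6 h to 0.72 at 24 h. Of the cartilage matrix genes, *Otor* differed by 0.37 (adjusted p = 0.00261), *Fmod* by 0.18 (adjusted p = 0.0148) and *Cnmd* by -0.47 (adjusted p = 0.0104). Of the transcription factors and their partners, *Mef2c* differed by 0.25 (adjusted p = 0.0307), *Wwp2* by -0.30 (adjusted p = 0.0114) and *Runx3* by -0.27 (adjusted p = 0.0203). In growth plate signalling the differences were 0.19 for *Fgfr1* (adjusted p = 0.0399), 0.34 for *Tgfb2* (adjusted p = 0.00384) and 0.22 for *Fgfr2* (adjusted p = 0.0213). *Chst15* differed by 0.34 (adjusted p = 0.00775). *Slc26a2* differed by -0.39 (adjusted p = 0.00157), with 0.16 at 6 h, which did not pass, and -0.23 at 24 h.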

How the results depend on the processing

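The rise of *Matn4* at 24 h stayed between 0.68 and 0.74 on the log2 scale under 19 alternatives and passed in 16. The median log2 change of all probe sets at 24 h was 0.001 as reported here, -0.004 after quantile normalization and 0.004 with array medians subtracted. For the 25 probe sets it was -0.07 as reported here, -0.038 after quantile normalization, -0.064 with array medians subtracted and -0.01 with array weights. Without the replicate block, that is without pairing the arrays, 0 of the 25 probe sets passed at 24 h or from 6 h to 24 h, 0 of the genes of the 5 lists did, and 1 probe set in all, against 1229. Fits on only the 2 groups compared gave 0, 0 and 0 (5 in all; *Matn4* adjusted p = 0.069 at 24 h), and the methods' t-test after Benjamini-Hochberg gave 0 at 24 h and 0 from 6 h to 24 h (unadjusted, 1 and 1). Over only the brighter 40% there were 2 in each, with *Sox6* 1434918 at 24 h (0.26, adjusted p = 0.04 by limma) and *Sox9* 1451538 from 6 h to 24 h (-0.16, adjusted p = 0.0464) as the second; at an adjusted p under 0.10 there were 2 at 24 h. Array weights, whose estimation stopped before it converged and which spread from 0.104 to 64.4, called 10 at 24 h, 2 from 6 h to 24 h and 37 list genes (9276 in all). Without the intensity trend 10 list genes passed (522 in all). Ratios of 2 in all 3 experiments gave 0. At 6 h the count was 0 under each alternative. Leaving out arrays gave 0 to 1 of the 25 (0 without experiment 1, both at 24 h and from 6 h to 24 h) and 0 to 16 list genes (0 without experiment 1 or 2, 4 without control array 1, 7 without control array 2, 7 without 24-h array 1, 5 without 24-h array 2, 10 without 6-h array 1).

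Directions turned only for values that had not passed. Some values not given above turned as well and are not listed. With the same array weights, *Sox5* 1423500 was -0.006, *Sox5* 1455535 0.001 and *Hapln1* 1426295 -0.014 at 24 h, and *Sox6* 1434918 was -0.049 and *Sox6* 1447655 0.012 from 6 h to 24 h. With the median of each array subtracted, *Sox9* 1424950 was 0.001 at 6 h. Leaving out arrays at 24 h gave -0.143 to 0.014 for *Matn3* 1422148, -0.153 to 0.005 for *Matn3* 1455948, -0.508 to 0.088 for *Hapln1* 1426294, -0.108 to 0.317 for *Hapln1* 1426295 and -0.216 to 0.025 for *Ihh*. For *Sox5* it gave -0.049 to 0.084 (1423500), -0.105 to 0.008 (1440827), -0.115 to 0.079 (1452511), -0.159 to 0.050 (1455535) and -0.014 to 0.070 (1459261). It gave -0.075 to 0.045 (1424950) and -0.016 to 0.067 (1451538) for *Sox9* at 6 h. For *Hapln1* at 6 h it gave -0.11 to 0.08 (1421633), -0.21 to 0.24 (1426294), -0.03 to 0.26 (1426295) and -0.04 to 0.07 (1438020). For *Sox6* from 6 h to 24 h it gave -0.048 to 0.016 (1426018), -0.045 to 0.088 (1434918) and -0.065 to 0.011 (1447655). The causes of these shifts were not tested.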
